A study of Macaca mulatta with 28 samples.

Results

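The 42 genes described here encode voltage-gated channels, and their partner subunits, that set pacemaking and excitability in neurons, and they were taken by gene symbol from the 16885 named entries of a table of transcript counts from macaque ventral tegmental area (VTA). They comprise 3 HCN channel genes, 8 pore-forming and 7 auxiliary calcium channel genes, 4 pore-forming and 3 auxiliary sodium channel genes, 16 genes of voltage-gated potassium channels and their KChIP partners, and the sodium leak channel NALCN. Tissue punches had been taken from 28 wild-type adult male rhesus macaques, of which 17 drank alcohol and 11 served as controls without it (calorically-yoked or housing controls), with 1 library per animal. Ethanol was open to the drinkers in daily sessions of 22 hours over 12 months, and cycles of forced abstinence and renewed access followed. All 28 animals were sampled at the end of a last 30 days without alcohol. The labels class the drinkers as Low (1 animal), Binge (2 animals), Heavy (5 animals) or Very Heavy (9 animals). Cohort 1 held 8 controls and 8 drinkers (1 Low, 4 Heavy and 3 Very Heavy), and cohort 2 held 3 controls and 9 drinkers (2 Binge, 1 Heavy and 6 Very Heavy). The comparisons ask whether the usage of these subunits differed with drinking, with drinking category and with cohort.

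Midbrain dopamine neurons fire without input. HCN channels open on hyperpolarization and, with the sodium leak through NALCN and calcium channels that open near rest, bring the membrane back to threshold, whereas sodium channels carry the spike and potassium channels of the Kv families end it and set the interval to the next. Fast-spiking neurons are known for high levels of Kv3 channels, which close quickly and let a cell fire at high rates, and for the sodium channel SCN1A. A VTA punch holds dopamine, GABA and glutamate neurons together with glia and myelinated axons, so a level here is that of the whole punch. In bulk tissue, fewer cells of a type and less RNA per cell cannot be told apart.

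Total counts per animal lay between 12303976 and 27338712, and mitochondrial transcripts made up 36.4% to 60.6% of them. The dopamine neuron markers TH (5.58 to 826 CPM, the TMM-normalized count scaled to library size) and SLC6A3 (6.35 to 833 CPM) were present in every punch, but their range shows that the amount of dopamine neuron RNA differed widely among animals of both groups. Over all 10 dopamine neuron markers, the summed level ranged from 36.5 to 1760 CPM in controls and from 38.2 to 1704 CPM in drinkers. The 7 markers of large or fast-firing neurons summed to 3393 to 10550 CPM in controls and 2968 to 23080 CPM in drinkers, while CHAT, a marker of cholinergic neurons in that list, was at or near 0 (up to 1.38 CPM, and 0 in 8 of 28 animals). Each entry of the table is 1 transcript of a gene, so a value of 0 says that the listed transcript received no counts and not that the gene was silent.

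The stretches of coding sequence below show what the HCN channels and the Kv1 channels each share within their family and where the transcripts lie in the genome. They were read from RefSeq transcripts and placed on Mmul_10, and the capitals mark the codons for glycine, tyrosine and glycine at the core of the pore's selectivity filter.
HCN2 (chr19:373191-373250, plus strand, exon 4 of 8): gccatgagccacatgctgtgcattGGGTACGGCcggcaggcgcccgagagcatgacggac
HCN4 (chr7:50161732-50161791, minus strand, exon 4 of 8): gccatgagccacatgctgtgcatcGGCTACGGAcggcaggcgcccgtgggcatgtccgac
HCN3 (chr1:95733850-95733909, minus strand, exon 4 of 8): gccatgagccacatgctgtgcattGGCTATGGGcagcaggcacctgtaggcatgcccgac
KCNA1 (chr11:5020577-5020636, plus strand, exon 2 of 2): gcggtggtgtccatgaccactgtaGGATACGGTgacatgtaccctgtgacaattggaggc
KCNA2 (chr1:113531683-113531742, plus strand, exon 3 of 3): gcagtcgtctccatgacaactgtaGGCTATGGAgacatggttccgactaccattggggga
KCNA4 (chr14:35405535-35405594, plus strand, exon 2 of 2): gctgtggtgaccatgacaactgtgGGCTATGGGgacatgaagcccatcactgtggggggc
Over these 60 bases HCN2 and HCN4 were identical at 53 positions and HCN2 and HCN3 at 49, while KCNA1 and KCNA2 were identical at 43. The HCN2 and KCNA1 stretches, from channels that open at opposite ends of the voltage range, matched at 26 of 60 positions.

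HCN2 was by far the most abundant of the channel transcripts per length. On the scale of CPM per kilobase (kb) of the RefSeq transcript, which is used for every comparison of levels between genes below, its median over the 28 animals was 87.2 CPM per kb (46.9 to 143), and the next in order was KCNC1, a Kv3 channel of fast-spiking cells, at 27.3 CPM per kb (7.97 to 45.4). Their ranges just failed to overlap. KCNC4, another Kv3 channel, followed at 15.2 CPM per kb, then SCN4B, the sodium channel subunit linked to resurgent current, at 14.8, NALCN at 12.5, the calcium channel subunit CACNA2D2 at 11.6 and SCN1A at 10.9. These 5 neighbours overlapped in range and their order is not separated by the spread among animals.

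**Figure D1:**
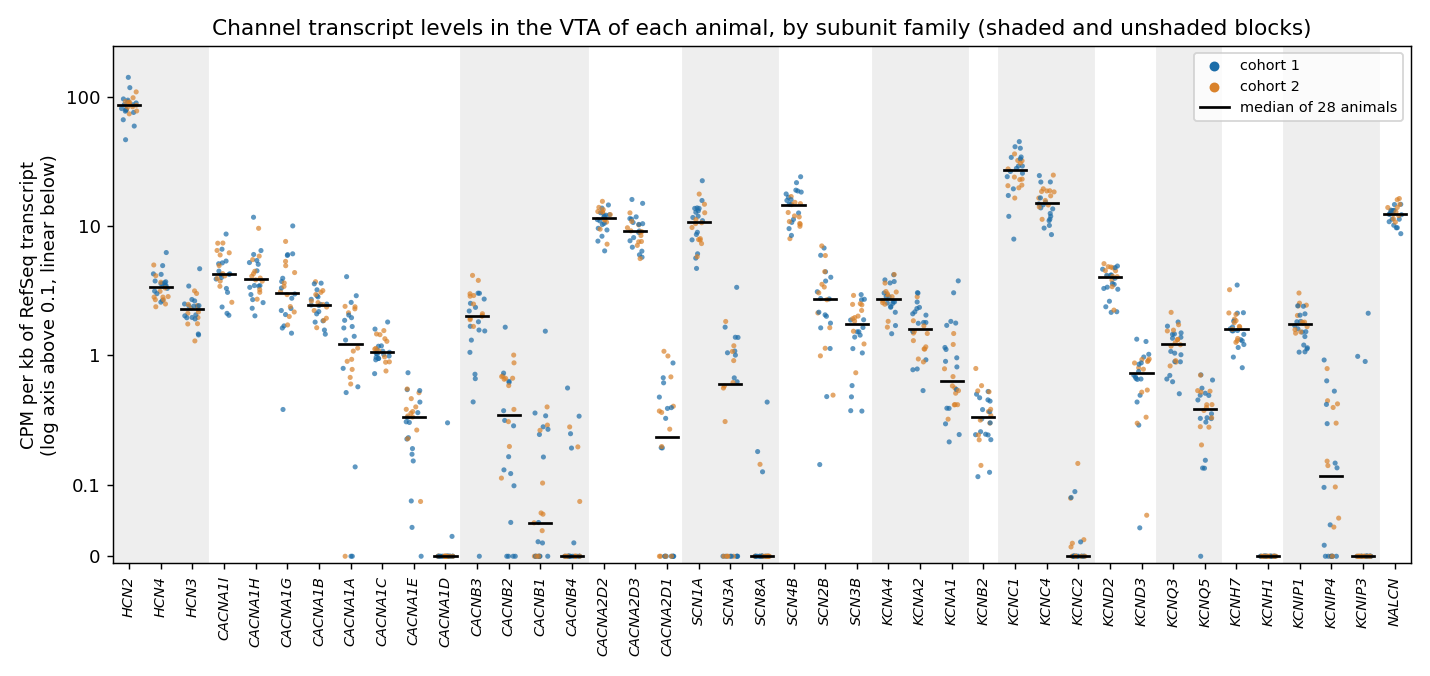
Level of 41 channel transcripts in each of 28 animals, in CPM per kb of RefSeq transcript on an axis that is logarithmic above 0.1 and linear below it, grouped by family and coloured by cohort, with the median as a line. HCN2 lies above the rest at a median of 87.2, and several listed transcripts sit at 0 in most animals.

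Within the HCN family HCN2 held a median of 93.9% of the summed level per length (87.4% to 96.6%) and was the highest member in 28 of 28 animals. HCN4, which has the slowest kinetics of the family, held 3.49% (2.04% to 7.18%), and HCN3 was lowest at 2.48% (1.33% to 5.38%). The share of HCN2 was much the same in controls (median 93.9%), heavy drinkers (93.3%) and very heavy drinkers (93.9%).

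Among the sodium channels, SCN1A carried a median of 95.5% (77.7% to 100%) of the level per length of the 3 pore-forming members that could be compared, and led in 28 of 28 animals. SCN3A, a form best known from the developing brain, held 4.52%, and the lowest was the listed transcript of SCN8A, the main sodium channel of the axon initial segment, which had counts in only 4 animals. SCN2A could not be matched to a RefSeq transcript and has no level per length, but its counts (median 369, and 0 in 6 animals) were below those of SCN1A (median 1767). Of the auxiliary subunits, SCN4B held a median of 74.4% (53.0% to 95.8%), SCN2B 15.9% and SCN3B 9.20%. The order of SCN2B and SCN3B depends on the length used, since with the coding length they held 2.43% and 12.8%.

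Calcium channel usage was spread more evenly. The 3 T-type channels, which open near rest, led the pore-forming members: CACNA1I had a median share of 25.3% (14.5% to 38.9%), CACNA1H of 23.3% and CACNA1G of 19.1%. CACNA1I was the highest in 16 animals, CACNA1H in 9 and CACNA1G in 3, so the order among them is not fixed. CACNA1B, the N-type channel of terminals, held 14.1%, CACNA1A, the P/Q-type channel, 7.48%, and CACNA1C, an L-type channel, 6.47%. The listed transcript of CACNA1D, the L-type channel tied to pacemaking in dopamine neurons, was the lowest, with counts in only 2 animals, both controls. CACNB3 led the beta subunits with a median of 75.8%, although this share ran from 0% to 98.9%, and CACNB4 was lowest with counts in 8 animals. CACNA2D2 (55.1%) and CACNA2D3 (43.0%) shared the alpha2delta level, and CACNA2D1 was lowest at 1.03%.

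Of the potassium channels, KCNC1 held 60.8% (45.1% to 78.5%) of the Kv3 level and KCNC4 39.2%, while the listed KCNC2 transcript had counts in 8 animals and at most 18 of them. KCND2, the main A-type channel of somata and dendrites, held 85.0% of the Kv4 level and KCND3 15.0%. KCNQ3 held 75.9% and KCNQ5 24.1% of the level of the M-type channels, KCNH7 all of the KCNH level because KCNH1 had no count in any of the 28 animals, and KCNIP1 93.2% of the KChIP level, with KCNIP3 lowest. KCNB2 stood alone in its family at 0.333 CPM per kb. In the Kv1 family the order depends on the length used: KCNA4 led with a median of 55.4% per transcript length and KCNA1 was lowest at 13.5%, but with the coding length KCNA2 led with 52.0% and KCNA4 held 32.6%, since the RefSeq transcript of KCNA2 has by far the longest noncoding stretches of the 3.

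In all, 26 of the 42 members had a count in every animal (61.9%, against 49.3% of all listed transcripts). The others were at 0 in 1 animal (CACNA1E, CACNB3 and KCNQ5), 3 (CACNA1A), 4 (CACNB2), 6 (SCN2A), 8 (KCNIP4), 10 (CACNB1), 11 (CACNA2D1 and SCN3A), 20 (CACNB4 and KCNC2), 24 (SCN8A), 25 (KCNIP3), 26 (CACNA1D) and 28 (KCNH1). Because 40 members passed the filter on low counts, partly through the animals where they were high, counts of members below refer to those 40 or to the 26 without a 0. For the 6 members at 0 in 20 or more animals, numbers of animals are given in place of a fold change.

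Over both cohorts, none of the 40 members differed between drinkers and controls at an adjusted p under 0.05 (edgeR quasi-likelihood test, Benjamini-Hochberg over 13769 transcripts). Cohort was not in this model. The background was the same, with 0% of all transcripts tested passing, and at an unadjusted p under 0.05 the members numbered 1, against 4.57% of all transcripts. DESeq2 called 11 of all transcripts and limma-voom none, and neither called a member. The abundant channels were close between the groups. HCN2 ran from 204 to 404 CPM (median 312) in controls and from 160 to 486 CPM (median 287) in drinkers, with the controls inside the range of the drinkers (log2 fold change -0.07, SE 0.11). For KCNC1 the log2 fold change was 0.01 with an SE of 0.19, for SCN4B -0.02 with an SE of 0.15, and for SCN1A -0.02 with an SE of 0.20.

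The members with the lowest p in that comparison included 2 transcripts at 0 in most animals, KCNIP3 and SCN8A. The listed transcript of KCNIP3, a KChIP that also acts as a calcium-dependent repressor of transcription, had counts in 3 of 17 drinkers and 0 of 11 controls, and all 3 were Heavy animals of cohort 1, at 1.07, 1.18 and 2.54 CPM. It passed the filter on low counts only through these 3 animals, so its p in this and the later comparisons was fixed in part by the filter and is not given. That of SCN8A had counts in 1 of 17 drinkers and 3 of 11 controls. Next was KCND3, an A-type channel, which ran from 3.73 to 10.2 CPM (median 6.93) in controls and from 0.301 to 9.74 CPM (median 4.99) in drinkers, a log2 fold change of -0.50 with an SE of 0.33 (edgeR adjusted p = 1.0). The ranges overlapped, and the lowest drinkers fell below every control. With cohort as a covariate NALCN had the lowest p of the members without a 0 (log2 fold change -0.17, SE 0.08, edgeR adjusted p = 0.66). Of the 8 tested members of the slow pacemaking list (HCN2, HCN3, HCN4, NALCN, CACNA1C and the T-type channels), 7 had a log2 fold change below 0, with a median of -0.09, where 49.7% of all transcripts were below 0.

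Within cohort 1 no member passed either, against 0.0382% of the 13086 transcripts tested (5 transcripts), and 2 members had an unadjusted p under 0.05, where 10.2% of all transcripts did. KCNC4 was lower in the 8 drinkers (45.0 to 66.1 CPM, median 54.4) than in the 8 controls (38.3 to 110 CPM, median 71.0), with a log2 fold change of -0.43 and an SE of 0.19 (edgeR p = 0.039, adjusted p = 0.45). The drinkers lay within the range of the controls, and the spread among controls was the larger. The other member was KCNIP3, described above. NALCN was next by p, with a median of 78.2 CPM in drinkers and 88.0 CPM in controls and a log2 fold change of -0.18 (SE 0.10, adjusted p = 0.60).

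Within cohort 2, with 3 controls, no member passed the adjusted threshold (0% of 12785 transcripts did) and 3 had an unadjusted p under 0.05, beside 3.76% of all transcripts. That count depended on single controls, being 0 without control 10 and 5 without control 9 or without control 11, and the median log2 fold change over the 37 members tested was -0.13 with all 3 and from -0.23 to -0.05 with 1 left out. CACNA2D3, an alpha2delta subunit that brings calcium channels to the membrane, was at 36.5, 38.4 and 47.6 CPM in controls and from 21.0 to 40.8 CPM (median 31.7) in drinkers (log2 fold change -0.39, SE 0.16, edgeR p = 0.031, adjusted p = 1.0). SCN1A was at 84.1, 100 and 140 CPM in controls and from 45.9 to 117 CPM (median 63.3) in drinkers (log2 fold change -0.56, SE 0.23, edgeR p = 0.031, adjusted p = 1.0). In both genes most drinkers lay below the lowest control but the groups overlapped. KCNQ3, an M-type channel, went the other way, at 9.11, 9.75 and 13.8 CPM in controls and from 10.02 to 23.7 CPM (median 14.6) in drinkers (log2 fold change 0.54, SE 0.23, edgeR p = 0.038, adjusted p = 1.0). The 5 members of the fast firing list with a count in every animal (KCNC1, KCNA1, KCNA2, SCN1A and SCN4B) all had a log2 fold change below 0 in cohort 2, from -0.66 to -0.27, and all above 0 in cohort 1, from 0.07 to 0.90. KCNC4, a Kv3 channel with a count in every animal that is not on that list, went the other way in both cohorts. All transcripts were nearly balanced in both, with 48.4% below 0 in cohort 2 and 50.6% in cohort 1.

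The difference of the drinking effect between the cohorts was tested as an interaction, and no member passed at an adjusted p under 0.05 (0.0145% of 13769 transcripts did, 2 in number). The 3 members with an unadjusted p under 0.05, beside 9.62% of all transcripts, were KCNC4 (log2 difference 0.71, SE 0.29, p = 0.019, adjusted p = 0.39), CACNA2D3 (-0.70, SE 0.29, p = 0.024, adjusted p = 0.42) and SCN1A (-0.92, SE 0.39, p = 0.028, adjusted p = 0.44). Some neuronal and oligodendrocyte markers moved with this split. Their part in it was not tested beyond the fit with a marker score as covariate given below. The oligodendrocyte score, a centred mean log2 CPM, averaged 0.202 in the controls and -0.088 in the drinkers of cohort 1, and -0.227 and -0.0256 in those of cohort 2. The summed level of 6 pan-neuronal markers had medians of 1447 CPM in the controls and 1943 CPM in the drinkers of cohort 1, and of 1406 and 1314 CPM in those of cohort 2. That of 3 GABA neuron markers had medians of 241.8 and 290.1 CPM in cohort 1, and of 261.5 and 200.3 CPM in cohort 2. The neurofilament gene NEFH had a log2 fold change between drinkers and controls of 1.22 in cohort 1 and -1.23 in cohort 2 (interaction -2.45, SE 0.78, adjusted p = 0.28), and NEFM of 1.01 and -1.08. Over the whole list of 7 large or fast-firing neuron markers, the summed level ran from 3393 to 10550 CPM in the controls and 4232 to 23080 CPM in the drinkers of cohort 1, and from 3508 to 9821 CPM and 2968 to 5169 CPM in those of cohort 2. NEFH and NEFM made up most of the highest of these sums (8418 and 11670 of 23080 CPM, in drinker 10). On the large or fast-firing neuron score, a mean over 6 of these markers on the log2 scale in which each counts alike, controls and drinkers of cohort 1 were close, with means of 0.264 and 0.292, and those of cohort 2 were at 0.354 and -0.612. With this score as a covariate the interaction of CACNA2D3 was -0.54, that of SCN1A -0.84 and that of KCNC4 0.69.

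**Figure D2:**
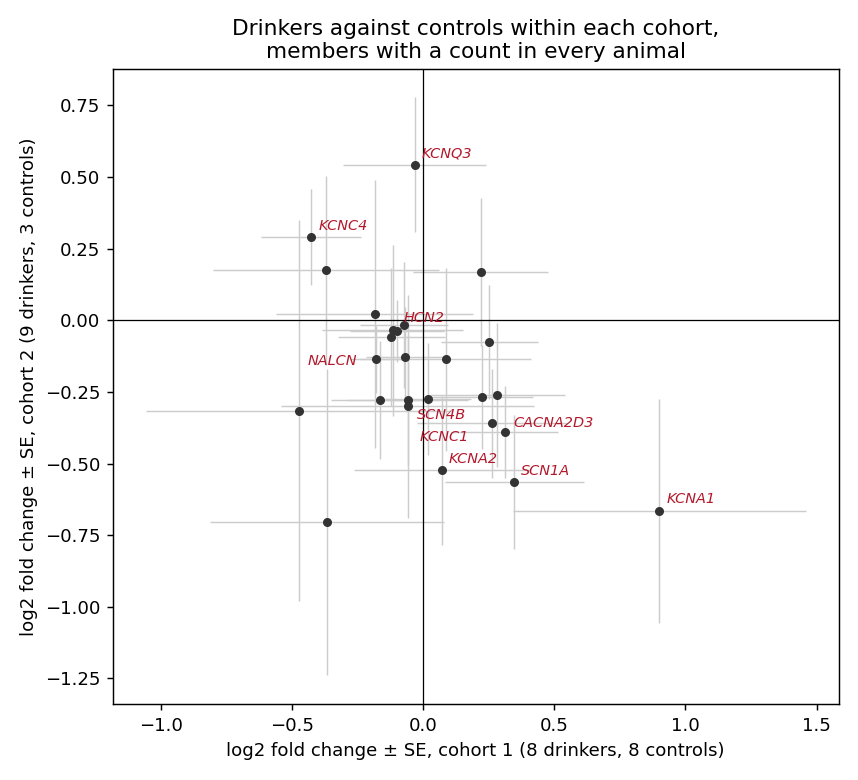
Log2 fold change between drinkers and controls within cohort 1 (x axis, 8 and 8 animals) and within cohort 2 (y axis, 9 and 3 animals) for the 26 members with a count in every animal, with bars of 1 SE in each direction. SCN1A (0.35 and -0.56), CACNA2D3 (0.31 and -0.39) and KCNC4 (-0.43 and 0.29) lie in opposite quadrants, and no interaction passed the adjusted threshold.

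Between the cohorts themselves, with group as a covariate, no member passed (0.0436% of transcripts did, 6 in number), and 5 members had an unadjusted p under 0.05 beside 9.80% of all transcripts. NALCN was higher in cohort 2 (75.9 to 116 CPM, median 92.6) than in cohort 1 (61.8 to 104 CPM, median 86.9), with a log2 difference of 0.21 (SE 0.07, edgeR p = 0.0083, adjusted p = 0.27). SCN4B was lower in cohort 2 (41.4 to 87.8 CPM, median 61.6) than in cohort 1 (43.9 to 125 CPM, median 82.5), with a log2 difference of -0.35 (SE 0.14, edgeR p = 0.022, adjusted p = 0.38). Among controls alone the SCN4B difference was -0.04, and among drinkers alone -0.53. For both genes the ranges of the cohorts overlapped over most of their length. KCNIP3, with counts in cohort 1 alone, KCNA1 (-0.86, adjusted p = 0.46) and KCNC4 (0.32, adjusted p = 0.48) were the others of the 5. The KCNA1 difference was 0.12 among controls alone and -1.45 among drinkers alone (edgeR adjusted p = 0.12). Among drinkers alone, KCNC4 passed, with a log2 difference of 0.55 between cohort 2 and cohort 1 (edgeR adjusted p = 0.023), where 0.796% of 13195 transcripts passed (105 in number), and among controls alone its difference was -0.17. The fit among drinkers had no category term, and the drinkers of cohort 1 were 4 Heavy and 3 Very Heavy of 8, those of cohort 2 1 Heavy and 6 Very Heavy of 9.

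In very heavy drinkers against controls, with cohort in the model, 23 of the 26 members without a 0 had a log2 fold change below 0 (31 of the 40 that passed the filter, with a median of -0.16), where 54.9% of all transcripts were below 0 and the median of all transcripts was -0.03. No member passed at an adjusted p under 0.05 (0% of transcripts did), and 3 of the 26 had an unadjusted p under 0.05, all of them lower in very heavy drinkers, beside 6.86% of all transcripts (3.95% lower). NALCN ran from 71.9 to 113 CPM (median 88.7) in controls and from 61.8 to 98.6 CPM (median 80.5) in very heavy drinkers, a log2 fold change of -0.29 (SE 0.08, edgeR p = 0.0020, adjusted p = 0.54). Its ranges overlapped widely, within the cohorts the value was -0.38 in cohort 1 and -0.20 in cohort 2, and without cohort in the model it was -0.18. KCNA2, a Kv1 channel of axons, had medians of 22.8 CPM in controls and 14.2 CPM in very heavy drinkers (log2 fold change -0.57, SE 0.26, adjusted p = 0.73), with -0.51 in cohort 1 and -0.70 in cohort 2. CACNA1B, the N-type channel, had a log2 fold change of -0.35 (SE 0.17, adjusted p = 0.73). The listed SCN8A transcript had counts in 0 of 9 very heavy drinkers and 3 of 11 controls. All 8 tested members of the slow pacemaking list were below 0, from -0.32 to -0.13.

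In heavy drinkers against controls the balance was the other way, with 18 of the 26 members without a 0 above 0 (28 of 40, with a median of 0.15), where 52.2% of all transcripts were below 0. This balance rested on drinker 3: without it 18 of 39 members were above 0, with a median of -0.04. No member passed (0% of transcripts did), and 1 had an unadjusted p under 0.05, beside 7.09% of all transcripts. That member was KCNIP3, with counts in 3 of 5 heavy drinkers and with the filter's part in it as above. SCN1A came next, at 94.4, 104, 110, 117 and 178 CPM in the heavy drinkers against 37.2 to 140 CPM (median 87.2) in controls, a log2 fold change of 0.48 (SE 0.24, edgeR p = 0.058, adjusted p = 0.72). Every heavy drinker lay above the control median. The fold change was 0.62 in cohort 1 alone and 0.11 in cohort 2, which holds 1 heavy drinker. CACNA2D3 was at 28.4, 30.6, 42.5, 56.4 and 60.4 CPM against a control range of 21.6 to 47.6 CPM (log2 fold change 0.32, SE 0.20, adjusted p = 0.84), but its sign turned in cohort 2 alone (-0.52), where the single heavy drinker was the lowest of the 5.

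Set against each other, very heavy drinkers were lower than heavy drinkers in 23 of the 26 members without a 0 and in 33 of the 40 that passed the filter, with a median log2 fold change of -0.32, where 51.1% of all transcripts were below 0 with a median of -0.01. Over the 26 the median was -0.26, and without drinker 3 it was -0.18 over the 39 members then tested, 11 of them above 0. Some neuronal marker levels were lower too. Their part in this was not tested beyond the fit with a marker score as covariate given below. The summed pan-neuronal level had a median of 1862 CPM in heavy drinkers (1360 to 2189), 1332 CPM in very heavy drinkers (957.7 to 2406) and 1406 CPM in controls, and 4 of the 5 markers tested were lower in very heavy than in heavy drinkers, none of them called. The GABA neuron level had medians of 300.9, 224.3 and 245.7 CPM and the large or fast-firing neuron level of 7779, 4693 and 4625 CPM in the same order, whereas the glutamate neuron level was about even (140.2, 140.6 and 125.6 CPM) and the pan-neuronal gene SNAP25 differed by -0.15 (SE 0.25) and UCHL1 by 0.01 (SE 0.24) on the log2 scale. Both categories are compared with the same controls above, so the 3 comparisons are not independent. No member passed at an adjusted p under 0.05 (0% of transcripts did), and 4 of the 26 members without a 0 (SCN1A, KCNA2, NALCN and CACNA2D3), all lower in very heavy drinkers, had an unadjusted p under 0.05, beside 6.23% of all transcripts (3.03% lower). KCNIP3 and SCN8A, with no counts in any very heavy drinker, are not counted here. CACNA2D3, at -0.49 over both cohorts, was at 0.12 in cohort 2 alone. The 5 fast firing members with a count in every animal were all below 0, from -0.86 to -0.30. KCNC4, a Kv3 channel outside that list, was at 0.25 without cohort in the model and at -0.03 in each cohort alone. All 8 tested slow pacemaking members were below 0, from -0.47 to -0.19.

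SCN1A had the lowest p of the members. Against the 94.4 to 178 CPM of the 5 heavy drinkers, the 9 very heavy drinkers ran from 45.9 to 109 CPM with a median of 62.3, and 8 of them lay below the lowest heavy drinker. The log2 fold change was -0.86 (SE 0.26, edgeR p = 0.0027, adjusted p = 0.67), and it was -0.69 in cohort 1 alone. In cohort 2 alone it was -0.88, but there 1 heavy drinker stands against 6 very heavy drinkers. KCNA2 was at 22.5, 23.5, 27.6, 29.2 and 38.5 CPM in the heavy drinkers and from 6.77 to 29.9 CPM (median 14.2) in the very heavy drinkers, 8 of which again lay below the lowest heavy drinker (log2 fold change -0.84, SE 0.32, edgeR p = 0.015, adjusted p = 0.70). Many controls lay below the lowest heavy drinker too, 6 of 11 for SCN1A and 5 of 11 for KCNA2. NALCN differed by -0.24 (SE 0.10, edgeR p = 0.026, adjusted p = 0.74), with 68.6, 79.96, 87.8, 93.4 and 116 CPM in heavy drinkers and only 1 very heavy drinker below them. Without cohort in the model the NALCN value was -0.12.

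The very heavy drinker that stood outside for both SCN1A and KCNA2 was the same animal, drinker 10 of cohort 1, and it also stood apart in KCNA1, a Kv1 channel that partners KCNA2 on axons. KCNA1 was at 8.89, 9.21, 9.73, 14.2 and 24.4 CPM in the heavy drinkers, from 1.95 to 6.30 CPM in 8 of the very heavy drinkers, and at 30.2 CPM, the highest of all 28 animals, in drinker 10. With all animals the KCNA1 log2 fold change was -0.84 (SE 0.55, edgeR adjusted p = 0.92). The same animal had the highest NEFH (8418 CPM), NEFM (11670 CPM) and PVALB (74.9 CPM) of the 28, while its TH and SLC6A3 ranked 16 of 28. Without it, in an alternative added after the data were seen, the log2 fold change between very heavy and heavy drinkers was -1.93 for KCNA1 (SE 0.49), -1.05 for SCN1A (SE 0.26) and -1.15 for KCNA2 (SE 0.32), each at an edgeR adjusted p of 0.56. KCNA1 is named in this comparison after its values were seen. With the score of large or fast-firing neuron markers as a covariate SCN1A stood at -0.88 and KCNA2 at -0.92.

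**Figure D3:**
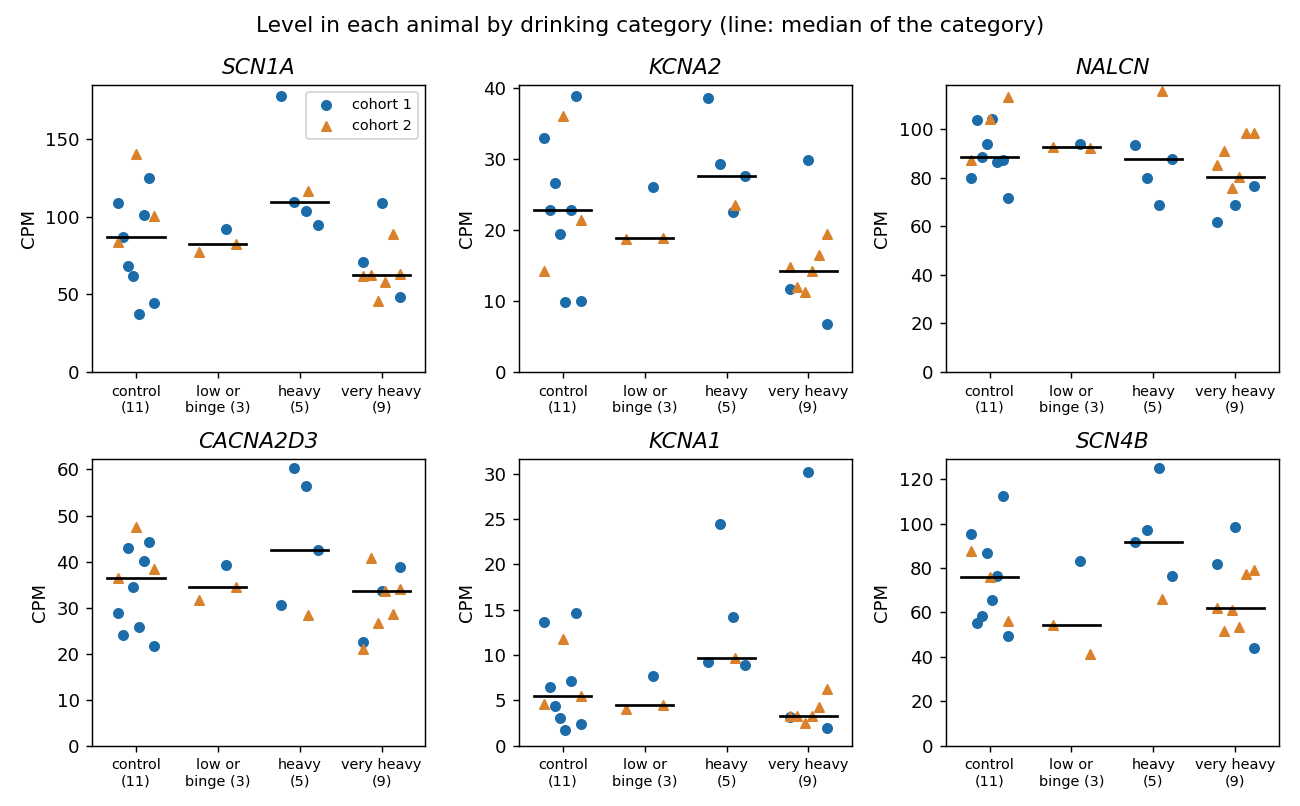
Level in CPM (y axes from 0) of 6 channel members in each animal by drinking category, with circles for cohort 1, triangles for cohort 2 and the category median as a line. For SCN1A, KCNA2 and KCNA1, 8 of 9 very heavy drinkers lie below the lowest heavy drinker, as do 6, 5 and 8 of 11 controls.

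**Figure D4:**
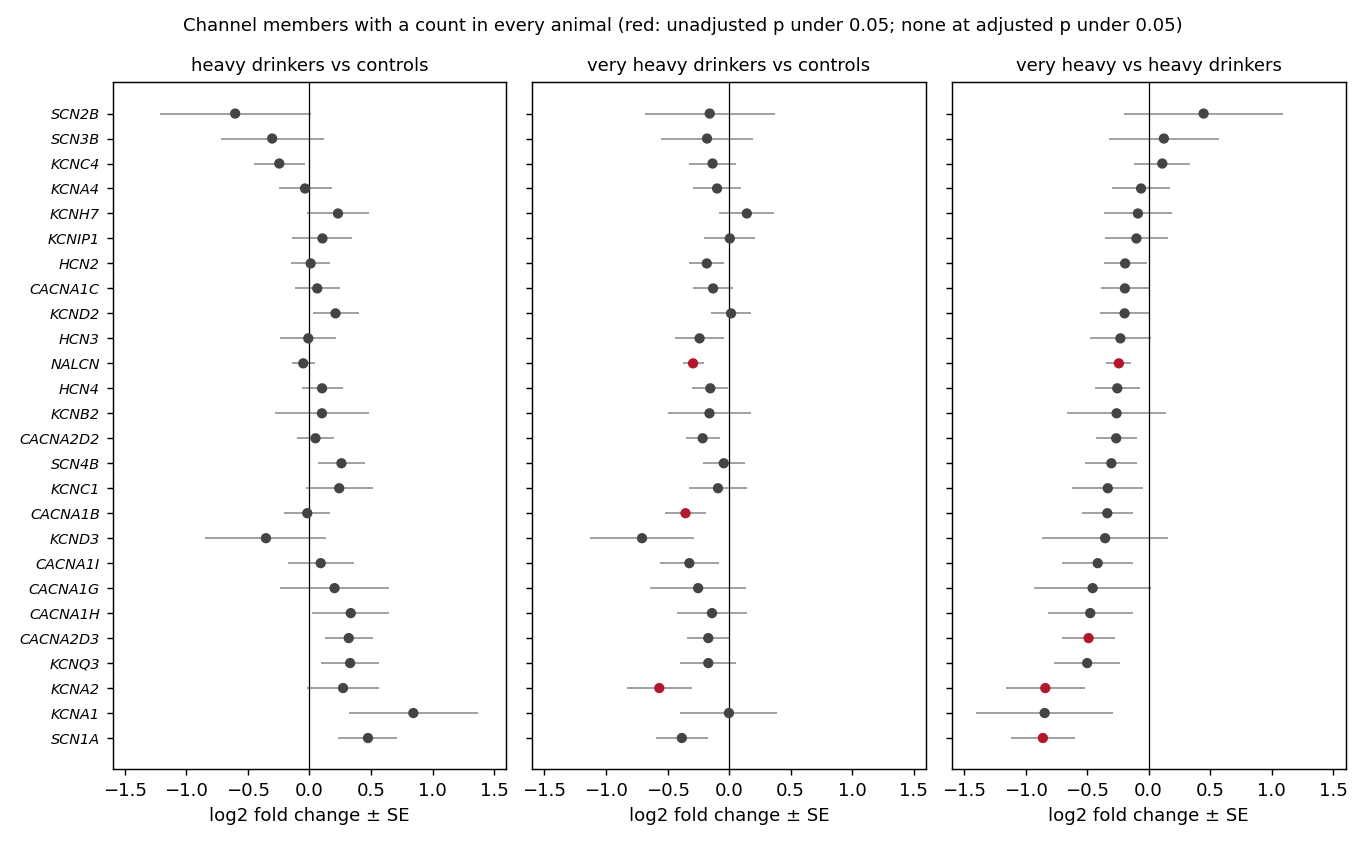
Log2 fold change with bars of 1 SE for the 26 members with a count in every animal, in heavy drinkers against controls, very heavy drinkers against controls, and very heavy against heavy drinkers. Red marks an unadjusted p under 0.05, and 23 of 26 members lie left of 0 in each of the latter 2 panels.

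Subunit shares by category are given as a description. KCNC1 held a median of 71.7% of the Kv3 level per length in heavy drinkers (61.9% to 75.1%), 56.0% in very heavy drinkers (48.2% to 78.5%) and 59.6% in controls (45.1% to 74.1%), and KCNC4 took up the rest. KCNA1 held 18.9%, 10.3% and 12.7% of the Kv1 level in the same order, and SCN4B 86.0%, 71.6% and 68.5% of the auxiliary sodium channel level. All of these ranges overlapped.

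The members were next set against scores of cell type marker transcripts in the punch, with group and cohort in the model. The slope on a dopamine neuron score, the mean log2 CPM of the 10 markers, was called for 1 member (0.523% of 13769 transcripts, 72 in number). That member was SCN8A, which had counts in 4 animals and passed the filter on low counts only through them, so its call rests on those animals and its slope is not given. Without drinker 5, one of the 4, it was not called, and neither DESeq2 nor limma-voom called it. Of the 26 members without a 0, none was called. KCNC1 had a slope of -0.19 (SE 0.06, adjusted p = 0.21) and KCNC4 of -0.12 (SE 0.04, adjusted p = 0.34), so both Kv3 transcripts were lower in punches rich in dopamine neuron markers, without passing. In cohort 1 alone the KCNC1 slope was -0.29 and passed narrowly (edgeR adjusted p = 0.0499, beside 0.459% of transcripts), while in cohort 2 alone it was -0.04. In all, 6 of the 26 had an unadjusted p under 0.05, beside 7.02% of all transcripts. Of the T-type and other slow pacemaking members, none was called, and their slopes ran from -0.09 (HCN2) to 0.07. The HCN2 slope was -0.16 in cohort 1 alone (edgeR adjusted p = 0.18) and 0.08 in cohort 2 alone (adjusted p = 1.0), so its sign turned between the cohorts.

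The slope on an oligodendrocyte score was called for no member (0.247% of transcripts), but 6 of the 26 members without a 0, all with negative slopes, had an unadjusted p under 0.05, where 11.2% of all transcripts did and 6.30% did so with a negative slope. The 5 fast firing members with a count in every animal had negative slopes, 4 of them among those 6, where 49.7% of all transcripts had one. KCNC4, a Kv3 channel outside that list, had a slope of -0.19 in cohort 1 alone and of 0.51 in cohort 2 alone. The lowest p of the 26 were those of CACNA1G (-1.43, SE 0.44, edgeR adjusted p = 0.17) and of SCN1A (-0.77, SE 0.25, edgeR adjusted p = 0.21). In cohort 1 alone the slopes were -1.67 and -0.57 and in cohort 2 alone -1.36 and -0.87. DESeq2 called CACNA1G (1.29% of transcripts). Without CLDN11 in the score, an alternative added after the data were seen, the slope of CACNA1G was smaller, at -0.91 (SE 0.76), and that of SCN4B was 0.0019. The others of the fast firing list stayed negative in that fit, with SCN1A at -0.93 (SE 0.45), KCNA1 at -2.21, KCNA2 at -1.07 and KCNC1 at -0.66, and none was called. SCN4B was also above 0 in cohort 2 alone, at 0.11.

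A score of markers of large or fast-firing neurons (PVALB, NEFH, NEFM, SPP1, CHAT and POU4F1) was added after the data were seen. It called 2 members, beside 0.675% of all transcripts (93 in number), and 7 members had an unadjusted p under 0.05, beside 9.30% of all transcripts. The 2 members called were SCN4B with a slope of 0.25 per unit of log2 score (SE 0.06, edgeR adjusted p = 0.029) and KCNA1 with 0.63 (SE 0.15). Because drinker 10 was the highest of 28 in NEFH, NEFM, PVALB and KCNA1, the KCNA1 slope in part repeats that observation and supports nothing further. In the animals, SCN4B was between 43.9 and 66.1 CPM in the 3 drinkers with the lowest scores (drinkers 1, 11 and 7) and between 96.9 and 125 CPM in the 3 with the highest (drinkers 4, 10 and 5). KCNA1 was between 1.95 and 9.73 CPM in the first 3 and between 14.2 and 30.2 CPM in the others. Drinkers 4, 10 and 5 were all of cohort 1, whereas drinkers 1 and 7 were of cohort 2. Next by p was CACNA1I, with a slope of -0.32 (SE 0.09, adjusted p = 0.12). With NEFH and NEFM alone as the score, SCN4B (0.27) and KCNA1 (0.75) were called again, CACNA1I was at -0.15 (adjusted p = 0.66), and SCN3B, another auxiliary sodium channel subunit, was called at -0.47 (edgeR adjusted p = 0.049, beside 1.61% of transcripts). HCN2 had a positive slope of 0.16 (SE 0.05, adjusted p = 0.16).

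The calls stood close to the threshold. When each of the 28 animals was left out in turn, SCN4B stayed past it in 22 fits, with slopes of 0.21 to 0.28, and KCNA1 in 17 fits, with slopes of 0.56 to 0.71. The highest adjusted p were 0.11 for SCN4B without drinker 11 and 0.16 for KCNA1 without drinker 10. Within cohort 1 the slopes were 0.29 for SCN4B and 0.85 for KCNA1 and within cohort 2 they were 0.12 and -0.04, so that of KCNA1 rests on cohort 1, and neither passed within a cohort (adjusted p of 0.15 and 0.097 in cohort 1, 1.0 for both in cohort 2).

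**Figure D5:**
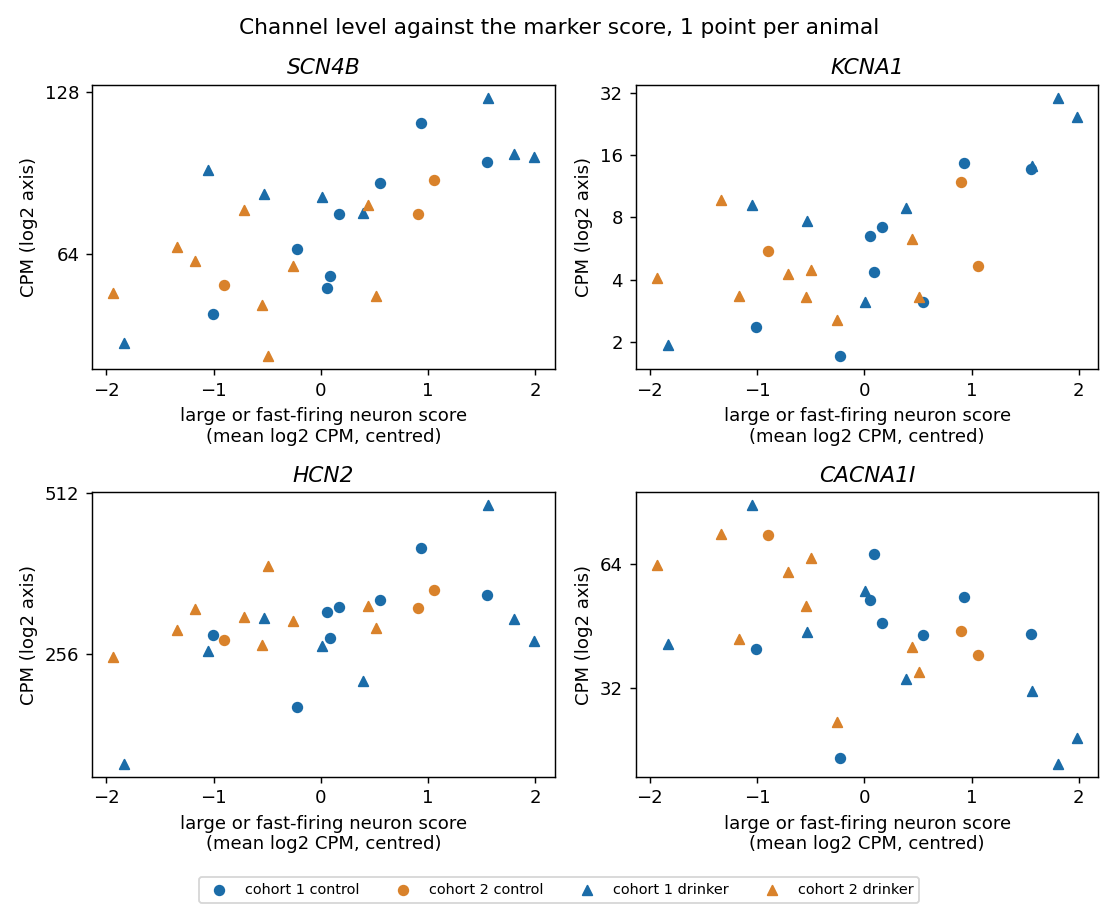
Level in CPM (log2 axis) of 4 channel members against the score of large or fast-firing neuron markers (mean log2 CPM, centred), with 1 point per animal, colour for cohort and shape for group. SCN4B (slope 0.25) and KCNA1 (slope 0.63) increase with the score over all animals, while KCNA1 shows no such increase in cohort 2 alone (slope -0.04).

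Other channel genes, 78 of which are in the table and 68 of which passed the filter, were counted for comparison. None was called between drinkers and controls (27 above and 41 below 0), between very heavy drinkers and controls (19 above and 49 below, median -0.13) or between very heavy and heavy drinkers (24 above and 44 below, median -0.14). They leaned to lower values in very heavy drinkers as the members did. Of these genes, 1 passed in any comparison: FGF13, a partner of sodium channels, had a slope of 0.23 on the dopamine neuron score (SE 0.05, edgeR adjusted p = 0.048).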

How the data were processed

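RNA was extracted from frozen VTA punches of 28 macaques and sequenced as paired-end reads. Per the labels and the study's methods, the authors trimmed reads with Trim Galore 0.6.7, quantified them against Mmul_10 with Salmon 1.9.0, normalized counts with DESeq2 1.36.0 and compared groups with BioJupies. The deposited values are estimated counts, not normalized, for 1 transcript per gene symbol. Here they were rounded to whole numbers, and 1 of the 16886 entries, with no symbol (1.16e-05 percent of counts), was left out.

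The filter on low values kept the 13769 transcripts that reached 5 counts in 3 or more animals, and these were tested with edgeR's quasi-likelihood test after TMM normalization, with Benjamini-Hochberg adjustment over all transcripts and a threshold of 0.05. CPM are TMM-normalized. Lengths and coordinates are those of RefSeq transcripts of Mmul_10, which matched 41 of 42 members, and the listed transcript may differ from the RefSeq one in length. Marker scores are mean log2 CPM with a prior count of 2. Category comparisons had cohort as a covariate and slopes had group and cohort. No 2 libraries were repeats: the most similar pair had identical counts for 23.2% of transcripts. Cohorts follow the study's source tables. Alternatives were DESeq2, limma-voom, other size factors, filters, a GC offset, omission of mitochondrial transcripts, covariates and omission of animals. The scripts were tested on simulated data.

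Members and lists were chosen with earlier results of these data known. Named with statistics are, in each comparison, the 3 members with the lowest p and those past the threshold, the highest and lowest of each family, and members at 0 in any animal. Some members outside this rule are named as well.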

Additional observations from a re-analysis of the deposited data

Results flagged for a closer look

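Outliers were sought among 14 named members in 65 sets of 5 to 9 animals (a category, or the drinkers or controls of a cohort). In 8 of the sets 1 animal stood far from the rest. Chance alone flags about 1 set in 20, but that rate does not hold for transcripts at 0 in most animals. Nor does it hold for sets that share animals, so the number of flags cannot be set against it. The 8 flags were 6 values, since 2 of them each stood out in 2 sets that share animals. KCNA1 in very heavy drinkers was at 30.2 CPM in drinker 10, with the next at 6.30 CPM. SCN1A was at 178 CPM in drinker 3, the highest both of the heavy drinkers (next 117 CPM) and of the drinkers of cohort 1 (next 109 CPM). KCNC4 was at 111 CPM in drinker 13, with 86.6 CPM the next among the drinkers of cohort 2. Of the transcripts at 0 in most animals, SCN8A was at 2.08 CPM in drinker 5, the 1 animal with counts both among heavy drinkers and among drinkers of cohort 1, and at 5.04 CPM in control 2, the higher of 2 controls of cohort 1 with counts. KCNIP3 was at 2.54 CPM in drinker 5, the highest of 3 drinkers of cohort 1 with counts.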

How the results depend on the processing

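Over the members that the naming rule gave in each comparison, 534 alternative values were computed, of which 505 kept their direction and side of the threshold, 23 fell short of it, 4 newly passed it and 2 reversed, both in cohort 2 alone: CACNA2D3 in heavy drinkers against controls (-0.52) and the KCNA1 slope on the large neuron score (-0.040). These counts leave out members named outside that rule, some of which also turned sign (CACNA2D3 between the categories and the HCN2 slope on the dopamine neuron score, in cohort 2 alone, and KCNC4 and KCNA1 between cohorts, among controls alone). No member was called under any alternative run between drinkers and controls or between categories, and only KCNC4 between cohorts, among drinkers alone. The cause of the changes below was not tested.

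DESeq2 called more of all transcripts: 11 between drinkers and controls (0 with edgeR), 236 in cohort 1 (5), 22 in cohort 2 (0), 157 for the interaction (2), 121 between cohorts (6), 60 for very heavy drinkers and 79 for heavy drinkers against controls (0 for both), 78 between the categories (0), and 124, 178 and 169 on the dopamine neuron (72), oligodendrocyte (34) and large neuron (93) scores. It called 0, 1 and 4 members on these scores, where edgeR called 1, 0 and 2. With limma-voom, 3 transcripts were called in each cohort, 23 between cohorts, 2 for heavy drinkers and 3 on the oligodendrocyte score, with 0 members on the dopamine neuron score. A minimum of 10 counts in every animal left 3 in cohort 1, 10 between cohorts, 41, 9 and 58 on the 3 scores, and 0 members on the first, since SCN8A was removed. No filter gave 3 in cohort 1 and 68 on the oligodendrocyte score, a GC offset 2 in cohort 1 and 0 for the interaction, and RLE size factors 3 between cohorts. The dopamine neuron score as covariate gave 2 in cohort 1 and 11 between cohorts. Between cohorts, 0 were called among controls alone and 105, with 1 member, among drinkers alone. Coding length gave shares of 91.4% for HCN2 and 32.6% for KCNA4, and no division by length 90.2%, 38.8% and, for CACNA2D2, 63.3%. Leaving out each animal of cohort 1 in turn gave 1 to 4 transcripts within it. Leaving out each control of cohort 2 gave 0 to 1 within cohort 2 and 0 to 6 between cohorts, and leaving out each heavy drinker gave 0 to 1 for heavy drinkers against controls.

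The following were chosen after seeing the data. Cohort 1 alone gave 42 transcripts for very heavy and 1 for heavy drinkers against controls, 1 between the categories, 2 on the oligodendrocyte and 6 on the large neuron score, with 2 members on the dopamine neuron and 0 on the large neuron score. Cohort 2 alone, where the lone heavy drinker was assumed to vary like the other groups, gave 2 for heavy drinkers against controls, 2 between the categories, and 18, 0 and 2 on the scores, with 0 members on the dopamine neuron and large neuron scores. The large neuron score as covariate gave 3 in cohort 1 and 0 for the interaction, NEFH and NEFM alone as score gave 221, and an oligodendrocyte score without CLDN11 gave 12. Leaving out each of the 28 animals in turn gave 44 to 95 on the large neuron score with 0 to 2 members, and leaving out each of the 4 animals with SCN8A counts gave 0 to 1 members on the dopamine neuron score.

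No paired analysis was possible because the replicate numbers follow accession order and the labels do not say which drinker each caloric control was yoked to. Counts limit the members at 0 in many animals, and with 5 heavy drinkers and 3 controls in cohort 2 a p that misses the threshold does not show that levels were equal.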
